A study of Rattus norvegicus with 6 samples.

Results

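The genes described here are 9 cardiac transcription factors that are used in the heart and in the muscle sleeve of the pulmonary vein (PV): Nkx2-5, Tbx5, Gata4, Gata6, Hand2, Shox2, Tbx3, Mef2c and Tbx20. They were chosen by name, as the rows of the deposited expression table that carry these symbols. All 9 were found among its 17833 genes. The choice was made with earlier results of these data known, so counts over the 9 are a description. The question is whether their transcripts differed between banded and sham-operated veins. The study modelled pulmonary vein stenosis by surgery on wild-type newborn Sprague-Dawley rats (SD in the labels). The bilateral pulmonary vein banding (BPVB) group had the veins constricted at postnatal day 1, and the sham group had the same operation without the constriction. At postnatal day 21 the veins of 3 rats per group were taken from the right lung (upper lobe), and each rat gave 1 bulk RNA-seq library. Values are FPKM, fragments scaled by gene length and by the library total, which can be compared between genes. The band was the only labelled difference between the groups. Each library is a piece of whole vein that holds sleeve muscle, smooth muscle, endothelium and connective tissue. It also holds whatever lung or atrial tissue was taken with the vein.

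The wall of the rodent pulmonary vein carries a sleeve of heart muscle that is continuous with the left atrium and extends into the lung. The homeodomain factor NKX2-5, the T-box factors TBX5 and TBX20, the zinc-finger factors GATA4 and GATA6, the basic helix-loop-helix factor HAND2 and the MADS-box factor MEF2C act together on the genes of working heart muscle. SHOX2 and TBX3 belong to the programme of the sinus node, the natural pacemaker: TBX3 represses genes of the working chambers, and SHOX2 opposes NKX2-5 at shared targets in the node and in the vein sleeve. Several of the factors are also used outside muscle, such as TBX5 in lung mesenchyme, GATA6 in vascular smooth muscle, HAND2 in sympathetic neurons and cardiac fibroblasts, and MEF2C in endothelium.

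Tbx20 was the factor that changed most: its level was 2.24-fold as high in the BPVB group as in the sham group. Tbx5, Gata4 and Nkx2-5 also rose, by 1.45-fold, 1.45-fold and 1.31-fold. Mef2c and Shox2 fell to 0.849 and 0.858 of the sham level. Tbx3, Hand2 and Gata6 did not pass the test. In numbers, 6 of the 9 factors had an adjusted p under 0.05 in limma, 4 of them higher and 2 lower in the BPVB group, beside 31.5% of all 15150 tested genes (17.2% higher and 14.3% lower). The median log2 fold change of the 9 factors was 0.26, against 0.02 for all tested genes. In bulk tissue, fewer cells of a type and less RNA per cell cannot be told apart, so each value is a level in the whole piece of vein.

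The libraries held between 23324220 and 29583436 fragments on the listed genes, more in each BPVB library than in any sham library. The 9 factors had between 495 and 11090 fragments per library, so that none of them was near the limit of detection, and all 9 passed the filter of a mean FPKM of at least 0.1. Heart muscle was present in all libraries. The atrial light chain gene Myl7 was at a mean of 5408 FPKM in the BPVB group and 8131 in the sham group. Whether this muscle was sleeve or atrial wall taken with the vein was not tested. Of 4 tested genes on the ventricular list 1 rose and 2 fell: Myl2 stood at 8.93 against 10.7 FPKM and did not pass (adjusted p = 0.18 in limma), Myl3 rose from 9.58 to 26.2 FPKM (7.7e-05), and Myh7 and Mybphl fell, Myh7 from 48.8 to 38.7 FPKM (3.8e-04). Mybphl is known from atrial and conduction muscle, so it is no ventricular marker, although the list holds it. The groups also differed in markers of other tissues. The 11 lung epithelial markers summed to between 656 and 706 FPKM in the BPVB libraries and between 134 and 140 in the sham libraries. Of 10 tested genes 9 were higher and 1, Hopx, lower. Hopx had means of 59.3 FPKM in the BPVB group and 70.9 in the sham group, a large part of the sham sum. The sums therefore understate the difference in the other markers. The 7 macrophage markers summed to between 625 and 652 FPKM against 190 to 196, with 6 of 7 higher. Lyz2 made up most of both sums, with means of 592 and 163 FPKM (log2 fold change 1.85). The other markers that rose ran from 0.62 (Mrc1) to 1.09 (Cd68) on the log2 scale. Cd163 did not pass (-0.07, adjusted p = 0.74 in limma). The 11 autonomic neuron markers summed to between 4.81 and 5.47 FPKM against 11.4 to 13.7, with 6 of 9 tested genes lower, and Phox2a, Chrna3 and Slc18a3 had 0 fragments in all 3 BPVB libraries. Smooth muscle markers (5 of 8 lower, 1 higher) and endothelial markers (6 of 9 lower) had sums of 0.891 and 0.886 of the sham level, and fibroblast markers (4 of 7 higher, 2 lower) a sum of 1.11 times that level. Of 6 tested mesothelial and epicardial markers 3 fell and 1 rose, with a median log2 fold change of -0.48. The sums of that list overlapped between the groups. The part of these differences in the results on the factors was not tested.

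**Figure D1:**
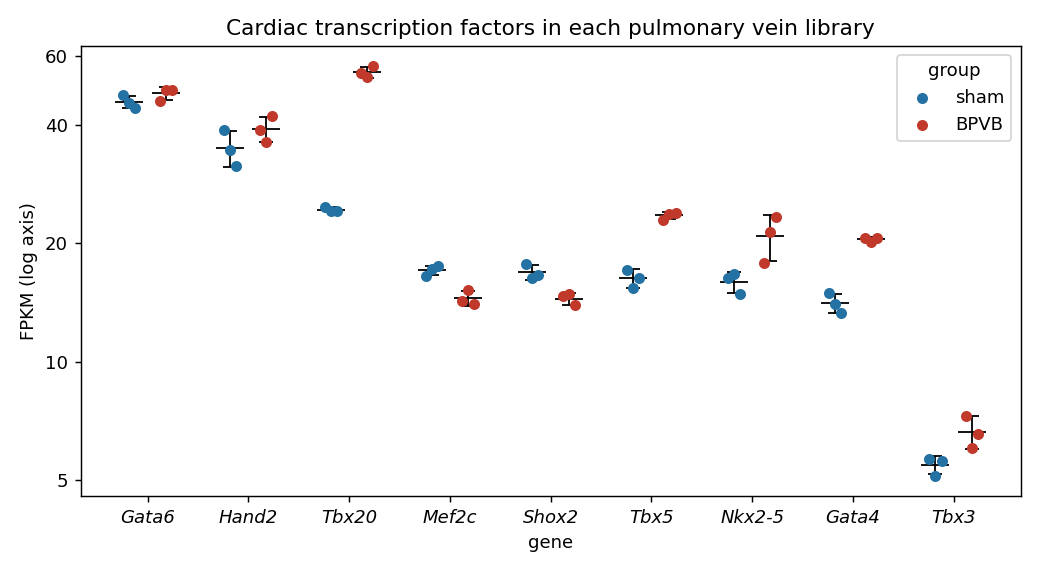
FPKM of each factor (log axis) in the 3 sham and 3 BPVB libraries, with genes ordered by their sham mean; each point is 1 library, and bars show the mean and SD of the group. Tbx20 stands out, with BPVB values between 52.9 and 56.3 against sham values between 24.1 and 24.7, whereas the points of Gata6 and Hand2 overlap between the groups.

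TBX20 is a T-box factor of heart muscle and endocardium that can activate or repress its targets and is needed throughout life for heart muscle function. Tbx20 stood at 54.2, 52.9 and 56.3 FPKM in BPVB libraries 1, 2 and 3 and at 24.7, 24.1 and 24.1 FPKM in sham libraries 1, 2 and 3, the order used for all values of single libraries. The lowest BPVB value lay 28.1 FPKM above the highest sham value, and the means were 54.5 ± 1.7 and 24.3 ± 0.36 FPKM (SD, n = 3 each). The log2 fold change was 1.15 (SE 0.040, 95% interval 1.05 to 1.24), with an adjusted p of 2.0e-07 in limma. Tbx20 was the single one of the 9 factors with a log2 fold change above 1, the size that the study asks of a differentially expressed gene (DEG), and 3.27% of all tested genes were DEGs (2.24% higher and 1.03% lower). An absolute change of at least this size was found in 2.36% of tested genes. Leaving out each library in turn gave log2 fold changes between 1.12 and 1.17.

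The change moved Tbx20 from below Gata6 and Hand2 to the top of the 9 factors. Among the 990 genes that the deposited table assigns to a transcription factor family, it stood at rank 85 by level in the sham group and at rank 24 in the BPVB group. Of 851 tested transcription factors 24.7% were called, 15.7% higher and 8.93% lower, and among the 134 that rose Tbx20 had rank 10 by the size of the change. Of the 30 transcription factors that were DEGs (3.53% of those tested), 10 had a mean of at least 10 FPKM, a limit chosen after the values were seen, and Tbx20 was the 1 of these 10 that was higher in the BPVB group. By the pattern over the 6 libraries (Pearson r of log2 levels over 12157 genes), the genes most like Tbx20 were Naaa, Tm4sf1 and Slc6a6, each with r of 0.999 or more, and 276 genes had an r over 0.99. These values include the difference between the 2 groups and describe 6 libraries only.

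For Tbx20, Nkx2-5, Tbx5, Hand2 and Gata6, 5 of the 9 factors, a promoter sequence could be matched in RefSeq (build GRCr8). The windows of Nkx2-5 and Tbx5 lie inside the annotated gene. The 250 bases before the start are shown for Tbx20, the factor with the largest change, and for Hand2, the one window of the 5 in which any searched motif was found, so that both can be read against the values. Capitals mark the motif matches. Tbx20 is at chr8:31534010-31534259 and Hand2 at chr16:37931489-37931738, both on the minus strand and both printed 5′ to 3′ in the direction of transcription.
Tbx20: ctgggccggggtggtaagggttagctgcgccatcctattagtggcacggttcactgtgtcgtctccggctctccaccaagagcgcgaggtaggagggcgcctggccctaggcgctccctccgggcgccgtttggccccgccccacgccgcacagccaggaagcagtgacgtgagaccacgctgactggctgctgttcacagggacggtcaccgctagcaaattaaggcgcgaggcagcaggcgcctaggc
Hand2: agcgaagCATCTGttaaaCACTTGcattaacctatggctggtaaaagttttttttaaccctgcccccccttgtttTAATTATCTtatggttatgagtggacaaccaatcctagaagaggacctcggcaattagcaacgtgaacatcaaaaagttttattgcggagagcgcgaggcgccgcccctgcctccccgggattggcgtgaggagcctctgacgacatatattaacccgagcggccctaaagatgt
The Tbx20 window is rich in G and C (66.8% against a median of 52.0% over 27457 such windows and 48.0% for Hand2). It held none of the 6 motifs searched on both strands: CAAGTG for NKX2-5, AGATAA for GATA factors, GGTGTGA for T-box factors, CTANNNNTAG for MEF2 factors, the E-box CATCTG for HAND2 and the homeodomain core TAATTA. These motifs occurred in 11.7%, 10.0%, 3.19%, 3.43%, 13.7% and 4.94% of all windows, respectively. The Hand2 window held the E-box, the NKX2-5 motif (read on the other strand as CACTTG), the homeodomain core and the GATA motif (as TTATCT), of which the last pair overlap in the run of 9 capitals. A match is a match of letters and not a measured binding site.

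TBX5 and TBX3 are encoded by neighbouring genes, and TBX5 activates many of the genes that TBX3 represses. Tbx5 was at 23.0, 23.8 and 24.0 FPKM in the BPVB libraries and at 17.1, 15.4 and 16.4 FPKM in the sham libraries, so that the groups did not overlap. Its means were 23.6 ± 0.51 and 16.3 ± 0.89 FPKM, with a log2 fold change of 0.52 (SE 0.054, 95% interval 0.40 to 0.64, adjusted p = 1.3e-04 in limma). Tbx3 was the lowest of the 9 factors, at 7.31, 6.05 and 6.57 FPKM in the BPVB libraries and 5.67, 5.14 and 5.61 FPKM in the sham libraries. Every BPVB value of Tbx3 lay above every sham value, but by only 0.385 FPKM at the nearest. Its log2 fold change of 0.26 (SE 0.090, 95% interval 0.051 to 0.46) did not pass the test (adjusted p = 0.060 in limma). With 1 library left out, the log2 fold change ran from 0.19 (without BPVB replicate 1, adjusted p = 0.18 in limma) to 0.32 (without BPVB replicate 2, the lowest of the BPVB values), where alone of the 6 it passed (adjusted p = 0.044 in limma).

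The rest of the T-box family gives the setting for these 3 genes. Of its 12 tested members, 3 rose and none fell: Tbx20, Tbx5 and Tbx4. This is 25% of the family, beside 24.7% called among all tested transcription factors. Tbx4, a factor of lung mesenchyme, was at a mean of 0.768 ± 0.15 FPKM in the BPVB group and 0.162 ± 0.068 FPKM in the sham group (log2 fold change 0.94, adjusted p = 0.0018 in limma). At this low level the value depends on the pseudocount and the fit, and ran from 0.60 to 2.30 over the alternatives. Tbx18, a factor of the venous pole and epicardium, was at 3.09 ± 0.55 and 3.37 ± 0.25 FPKM (log2 fold change -0.12, adjusted p = 0.53 in limma). The 15 family members of the table summed to between 108 and 114 FPKM in the BPVB group and between 68.3 and 68.8 FPKM in the sham group, and Tbx20 made up the largest share of the sum in both.

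GATA4 and GATA6 bind the same DNA motif, and GATA4 is known for its role in the response of heart muscle to load. Gata4 was at 20.6, 20.2 and 20.6 FPKM in the BPVB libraries and at 14.9, 14.1 and 13.3 FPKM in the sham libraries. The lowest BPVB value was 5.26 FPKM above the highest sham value, with means of 20.5 ± 0.25 and 14.1 ± 0.81 FPKM. Its log2 fold change was 0.52 (SE 0.056, 95% interval 0.40 to 0.65, adjusted p = 1.4e-04 in limma). Gata6 was the most abundant of the 9 factors in the sham group, at 47.6, 45.4 and 44.2 FPKM, and stood at 46.0, 49.2 and 49.0 FPKM in the BPVB group. The groups overlapped, and the log2 fold change of 0.07 (SE 0.044, 95% interval -0.030 to 0.17) did not pass the test (adjusted p = 0.26 in limma). The interval leaves room for a rise of 0.17 on the log2 scale. By the same likeness measure as for Tbx20, the genes nearest to Gata6 were Arhgef2, Cul4a and Trappc10 (r of 0.986, 0.976 and 0.976 over 6 libraries), and 0 genes had an r over 0.99. Of the 12 tested genes of the GATA zinc-finger family, Gata4 rose and Gata2, a factor of blood and endothelial cells, fell from 18.3 ± 0.062 to 14.2 ± 1.1 FPKM (log2 fold change -0.36, adjusted p = 0.0031 in limma). These are 16.7% of the family, beside 24.7% called among all tested transcription factors. The family as labelled also holds genes other than the GATA factors, such as Mta1, Mta2 and Rere. The share is therefore not that of the GATA factors alone. In the GRCr8 annotation the span of an lncRNA gene, LOC102548615, overlaps that of Gata4. Whether their exons overlap was not checked. If they do, reads of the pair cannot be told apart without a stated strand setting.

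NKX2-5 and SHOX2 are homeodomain factors of working muscle and of the pacemaker programme. Nkx2-5 was at 17.8, 21.4 and 23.3 FPKM in the BPVB libraries, the widest spread of the factors that passed the test, and at 16.3, 16.7 and 14.8 FPKM in the sham libraries. The groups did not overlap, and the nearest values were 1.17 FPKM apart. Its means were 20.9 ± 2.8 and 16.0 ± 0.97 FPKM, with a log2 fold change of 0.37 (SE 0.094, 95% interval 0.16 to 0.58, adjusted p = 0.016 in limma). This call was lost when any 1 of 3 libraries was left out: the log2 fold change was 0.35 without BPVB replicate 2, 0.29 without BPVB replicate 3 and 0.32 without sham replicate 3, with adjusted p-values of 0.051, 0.053 and 0.059 in limma.

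Shox2 moved the other way. It was at 14.7, 14.9 and 13.9 FPKM in the banded veins, below the sham values of 17.7, 16.3 and 16.6 FPKM. The groups did not overlap, with means of 14.5 ± 0.51 and 16.9 ± 0.74 FPKM and a log2 fold change of -0.21 (SE 0.057, 95% interval -0.34 to -0.084, adjusted p = 0.020 in limma). Without BPVB replicate 3 or sham replicate 1 the log2 fold change was -0.18 and the call was lost (adjusted p of 0.066 and 0.072 in limma). The coding gene Rsrc1 overlaps Shox2 in the GRCr8 annotation and was at 9.76 ± 1.3 and 9.51 ± 0.89 FPKM (log2 fold change 0.03, adjusted p = 0.85 in limma).

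MEF2C drives sarcomere and metabolic genes in muscle and is also active in endothelial cells. Mef2c was at 14.3, 15.2 and 14.1 FPKM in the BPVB libraries and at 16.6, 17.2 and 17.5 FPKM in the sham libraries, with no overlap. Its means were 14.5 ± 0.61 and 17.1 ± 0.47 FPKM, with a log2 fold change of -0.23 (SE 0.055, 95% interval -0.35 to -0.11, adjusted p = 0.012 in limma). Although small, this change passed the threshold under all 16 alternative settings. An lncRNA gene, LOC103691412, overlaps Mef2c in the annotation.

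HAND2, a partner of GATA4 in heart muscle, had the most variable values within the sham group. Hand2 was at 38.7, 36.3 and 42.1 FPKM in the BPVB libraries and at 38.7, 34.6 and 31.5 FPKM in the sham libraries. The highest sham value lay within the BPVB range, with means of 39.0 ± 2.9 and 34.9 ± 3.6 FPKM. The log2 fold change of 0.16 (SE 0.079, 95% interval -0.021 to 0.34) did not pass (adjusted p = 0.16 in limma), and with 1 library left out it ran from 0.088 (without sham replicate 3, adjusted p = 0.43 in limma) to 0.23 (without sham replicate 1), where alone it passed (adjusted p = 0.047 in limma). Without BPVB replicate 3 it was 0.10 (adjusted p = 0.41 in limma). With Gata6, it was one of the pair of factors whose groups overlapped. In the other 7, 5 higher and 2 lower, they did not, beside 45.6% of all tested genes (25.2% higher and 20.5% lower).

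**Figure D2:**
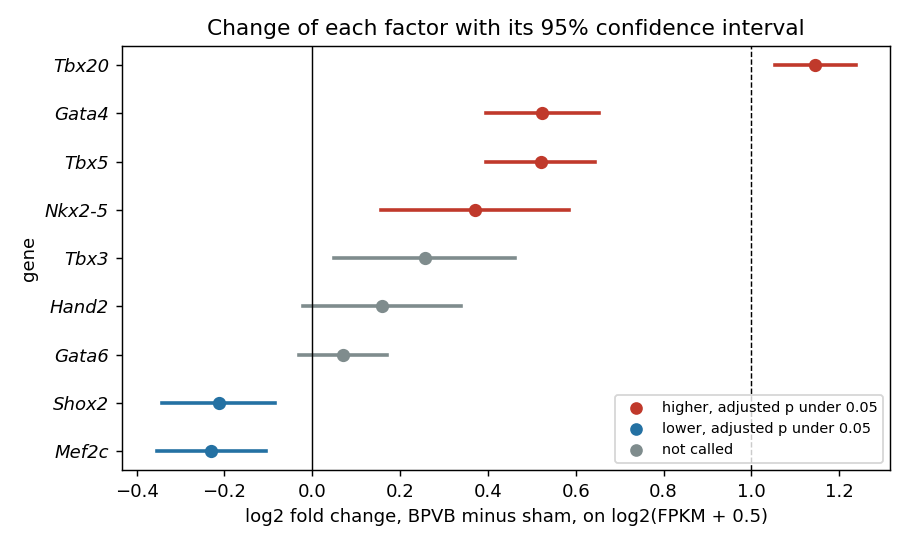
Log2 fold change of each factor, BPVB minus sham, on log2(FPKM + 0.5), with its 95% confidence interval from limma over 3 against 3 libraries; red and blue points passed an adjusted p of 0.05, gray ones did not, and the dashed line marks a log2 fold change of 1. Tbx20 at 1.15 is the single factor beyond that line, and Shox2 (-0.21) and Mef2c (-0.23) are the pair below 0.

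The order of the factors by level differed between the groups. In the sham group it ran from Gata6 through Hand2 and Tbx20 to Mef2c, Shox2, Tbx5, Nkx2-5 and Gata4, and ended with Tbx3. From Mef2c to Gata4 each gene overlapped with the next in its values, but all Gata4 values lay below those of Mef2c, Shox2 and Tbx5. In the BPVB group it ran from Tbx20 through Gata6 and Hand2 to Tbx5, Nkx2-5 and Gata4, then Mef2c and Shox2, and again ended with Tbx3. There, Tbx5, Nkx2-5 and Gata4 overlapped with their neighbours in the order, as did Mef2c and Shox2, but the first of these sets lay wholly above the other. Mef2c and Shox2 moved from ranks 131 and 133 among the transcription factors to 169 and 171, whereas Tbx5, Nkx2-5 and Gata4 moved from 140, 145 and 167 to 83, 101 and 104.

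Ratios of 2 factors within a library do not depend on its scaling. The 9 ratios given here were chosen with the values in view and restate the changes of the single genes, so they are a description with no test. Nkx2-5 over Shox2 was 1.22, 1.44 and 1.68 in the banded veins against 0.923, 1.02 and 0.893 in the sham veins. The ratio of Gata4 to Gata6 was 0.427 ± 0.019 in the BPVB group and 0.308 ± 0.0065 in the sham group. Tbx20 over Tbx5 was 2.36, 2.23 and 2.35 in the banded veins against 1.44, 1.57 and 1.47 in the sham veins. Tbx20 over Tbx3 was 8.24 ± 0.72 against 4.45 ± 0.21, and Tbx5 over Tbx3 was 3.57 ± 0.39 against 2.98 ± 0.054. Mef2c over its relative Mef2a was 0.354 ± 0.017 against 0.422 ± 0.016. In these 6 ratios the groups did not overlap, and in the other 3 they did. Tbx5 over Gata4 was 1.15 ± 0.032 in the BPVB group and 1.16 ± 0.069 in the sham group, Gata4 over Nkx2-5 was 0.995 ± 0.14 against 0.885 ± 0.037, and Nkx2-5 over Tbx5 was 0.884 ± 0.10 against 0.982 ± 0.093.

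The sarcomere genes of heart muscle, which these factors are known to act on, were mostly lower in the banded veins. Of 14 genes of the atrial sarcomere, 12 fell, Actn2 rose and Mybpc3 did not pass (92.9% called, beside 31.5% of all tested genes), with a median log2 fold change of -0.39. Myl7, the atrial regulatory light chain, fell by 0.59 on the log2 scale (adjusted p = 4.8e-07 in limma), although under quantile normalization, where it is among the highest genes, its change was -0.14 and did not pass (adjusted p = 0.31 in limma). The 14 genes summed to 19083, 19594 and 19638 FPKM in the BPVB libraries and to 26832, 26923 and 27326 FPKM in the sham libraries, 0.719 of the sham level. Since this sum was lower in the BPVB group, a gene with unchanged FPKM comes out 1.39 times as high when set against it in the same library, and the median over all tested genes was 1.42 times. The values of the factors on this scale are therefore a description and are to be read against 1.42. Tbx20 was at 2.80 ± 0.091 FPKM per 1000 FPKM of sarcomere genes in the BPVB group and 0.901 ± 0.020 in the sham group, 3.11 times as high. Tbx5 and Gata4 were 2.01 and 2.02 times as high on this scale, Nkx2-5 1.81, Tbx3 1.68, Hand2 1.55 and Gata6 1.46 times. Shox2 and Mef2c, which were lower by FPKM, were 1.19 and 1.18 times as high. The BPVB values lay wholly above the sham values for all 9, which was also the case for 71.2% of all tested genes, and the median log2 difference of the 9 was 0.75.

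**Figure D3:**
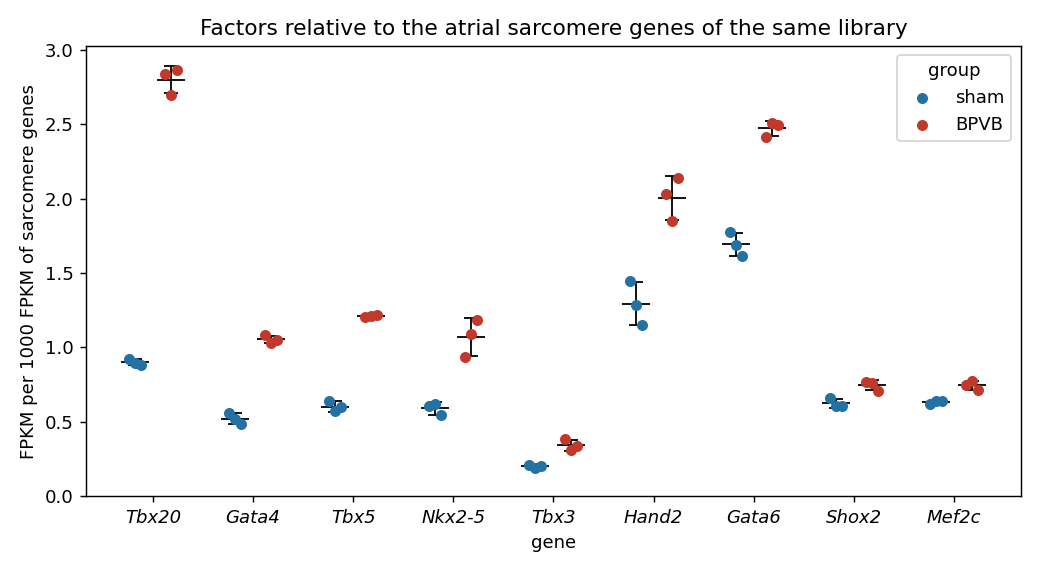
FPKM of each factor per 1000 FPKM of the 14 atrial sarcomere genes of the same library (linear axis from 0) in the 3 sham and 3 BPVB libraries; each point is 1 library, with the mean and SD of the group. The factors run from 1.18 times the sham level for Mef2c to 3.11 times for Tbx20, beside a median of 1.42 times over all tested genes, since the sarcomere sum itself was lower in the BPVB group.

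The genes of working atrial muscle that serve as readouts of these factors split. Of 19 tested chamber targets, 7 rose and 8 fell (78.9%, beside 31.5% of all tested genes), with a median log2 fold change of 0.04. Nppb, the natriuretic peptide gene that rises with wall stress and carries GATA4 sites, went from 7.09 ± 1.5 to 22.1 ± 2.5 FPKM (log2 fold change 1.59, adjusted p = 5.0e-05 in limma). Its relative Nppa went from 548 ± 14 to 645 ± 9.4 FPKM (0.23, adjusted p = 1.6e-04 in limma). Gja1, which encodes connexin 43, rose from 79.3 ± 2.6 to 122 ± 2.0 FPKM (0.62, adjusted p = 2.4e-06 in limma). Gja5, the connexin 40 gene that TBX5 and NKX2-5 activate in the atrium, was at 15.6 ± 1.2 against 14.6 ± 0.85 FPKM and did not pass (0.09, adjusted p = 0.36 in limma). Of the genes that fell, 6 (Myh6, Myl4, Actc1, Tnnt2, Tnnc1 and Tnni3) belong to the contractile apparatus and are the same genes as in the sarcomere list above, and the largest fall was that of Tnni3, the cardiac troponin I gene (-0.69, adjusted p = 9.9e-07 in limma). Of the calcium-handling genes, those of the release channel Ryr2 and the pump inhibitor Pln rose (0.38 and 0.27), and those of the pump Atp2a2 and the exchanger Slc8a1 fell (-0.36 and -0.26).

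Genes of the pacemaker programme, which SHOX2 and TBX3 favour and NKX2-5 opposes, showed no common direction. Of 13 tested, 4 rose and 2 fell (46.2%, beside 31.5% of all tested genes), with a median log2 fold change of -0.07. Hcn4, the pacemaker channel gene, was low in all libraries but higher in the banded veins, with 195, 140 and 160 fragments against 74, 41 and 43 in the sham libraries (1.53 ± 0.28 against 0.563 ± 0.20 FPKM, log2 fold change 0.94, adjusted p = 0.0031 in limma). Its value ran from 0.69 to 1.46 over the alternatives. The calcium channel genes Cacna2d2 and Cacna1h went in opposite directions (0.55 and -0.74, adjusted p of 0.0030 and 0.0041 in limma). Among further calcium channel genes, Cacna1g rose (0.42, adjusted p = 7.3e-04 in limma) and Cacna1d did not pass (-0.09, adjusted p = 0.66 in limma). Smoc2, which encodes a secreted matrix protein, fell from 16.5 ± 0.43 to 6.17 ± 0.47 FPKM (-1.35, adjusted p = 1.8e-06 in limma). Isl1, a factor of cardiac progenitors, the sinus node and autonomic neurons, had 5, 13 and 5 fragments in the sham libraries and 0 in each BPVB library, where a count of 0 allows up to 3 fragments. It was below the filter and was not tested.

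Other DNA-binding factors of the heart and the venous pole were mixed as well, with 9 of 30 tested genes higher and 3 lower (40%, beside 24.7% of all tested transcription factors) and a median log2 fold change of 0.17. Prrx1, a mesenchymal homeodomain factor, rose from 24.0 ± 0.75 to 36.4 ± 2.3 FPKM (0.59, adjusted p = 5.6e-05 in limma). Prox1, used in heart muscle and lymphatic endothelium, rose from 0.774 ± 0.062 to 2.15 ± 0.23 FPKM (1.05, adjusted p = 2.5e-04 in limma). Meis2 rose (0.49, adjusted p = 0.0045 in limma) and Msx1 fell (-0.66, adjusted p = 0.0048 in limma). Nr2f2, which sets atrial and venous identity, was at 32.4 ± 1.1 against 34.8 ± 0.46 FPKM and did not pass (-0.10, adjusted p = 0.093 in limma).

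Of 20 genes for proteins that bind these factors or modulate them, 6 rose and 3 fell (45%, beside 31.5% of all tested genes). Their median log2 fold change was -0.02. Chd4, a chromatin remodeller recruited by GATA4, NKX2-5 and TBX5, went from 35.8 ± 0.76 to 47.0 ± 0.52 FPKM (0.39, adjusted p = 6.8e-05 in limma). Zfpm1, a GATA cofactor, rose by 0.37 on the log2 scale (adjusted p = 0.014 in limma), but without BPVB replicate 2 its change was 0.33 and did not pass (adjusted p = 0.052 in limma). Its relative Zfpm2 did not pass (-0.05, adjusted p = 0.72 in limma). Smyd1, a muscle histone methyltransferase, and Hopx, a homeodomain protein that binds SRF and is also made by lung epithelium, fell (-0.28 and -0.26, adjusted p of 0.0066 and 0.0020 in limma). Srf itself was at 25.2 ± 2.0 and 25.4 ± 0.48 FPKM (adjusted p = 0.92 in limma), and its coactivator Myocd at 8.65 ± 0.44 and 9.96 ± 0.24 FPKM did not pass (-0.19, adjusted p = 0.053 in limma).

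**Figure D4:**
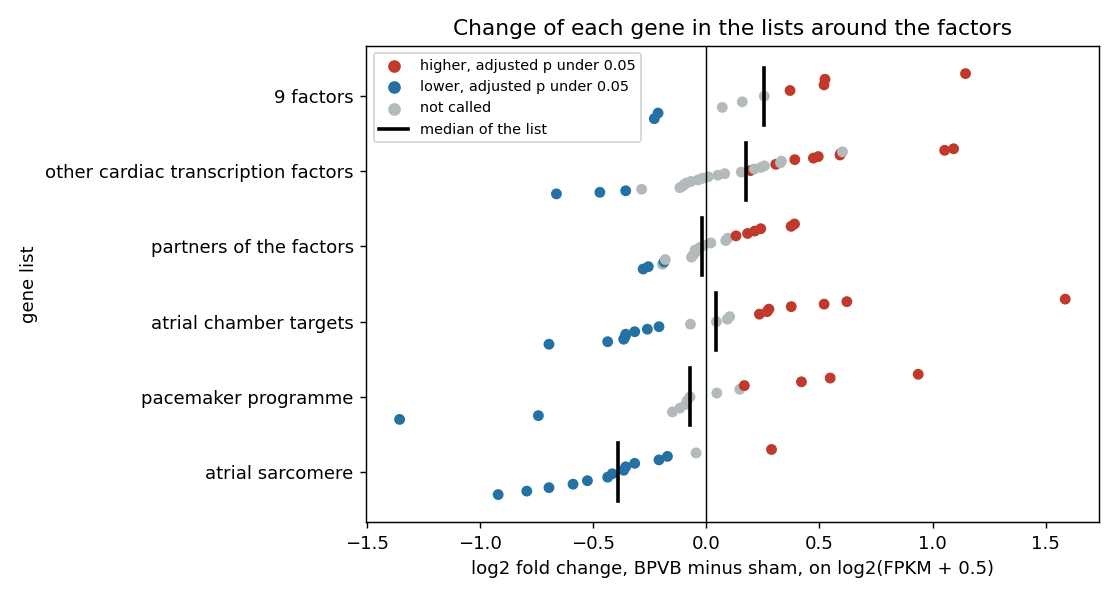
Log2 fold change, BPVB minus sham, on log2(FPKM + 0.5), of each tested gene among the 9 factors, other cardiac factors, partners, chamber targets, pacemaker programme and atrial sarcomere; each point is 1 gene, colored where it passed an adjusted p of 0.05 in limma, and the black bar is the median of the list. The medians of these lists run from -0.39 for the atrial sarcomere to 0.26 for the 9 factors, and the points of the chamber targets and the pacemaker programme lie on both sides of 0.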

How the data were processed

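Bulk RNA-seq of the PVs of 3 BPVB and 3 sham rats was used, grouped by the sample labels. The number of per-sample columns not used was 0. The authors deposited 1 FPKM value per gene and rat. Their methods name fastp, HISAT and HTSeq-count, and the submitters' processing notes list HISAT2 2.0.5, StringTie 1.3.3b, featureCounts 1.5.0-p3 and DESeq2 1.20.0. The build, annotation and strand setting are not given in the sources used here. The methods name a VAHTS V6 library kit and the labels a NEBNext Ultra kit. Columns of the authors' own comparisons were not used.

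FPKM are not counts, so the DESeq2 test of the study was replaced by limma 3.58.1 in R 4.3.3 (lmFit, eBayes with trend, two-sided) on log2(FPKM + 0.5). The 15150 genes that averaged 0.1 FPKM or more were tested, with Benjamini-Hochberg adjustment over all of them. The pseudocount understates changes of low genes. Calls had an adjusted p under 0.05, and DEGs also an absolute log2 fold change above 1. The fragment numbers behind the FPKM were worked out per gene, since the values of a gene stand to each other as whole numbers. They were whole for 100% of 17833 genes, within a fixed tolerance of 0.0001 of a fragment and a very small relative one. The fragment numbers were used for depth and for limma-voom as an alternative. Limits from them cover counting error only. Ratios and sums were computed in Python 3.11.15 with scipy 1.17.1, numpy 2.4.6 and pandas 2.3.3, and figures were drawn with matplotlib 3.10.9. The procedure was tested on simulated data.

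The 9 factors, the gene lists and the motifs were chosen with earlier results of these data known. Named genes are the 9 factors, in each of 4 lists (other factors, partners, chamber targets, pacemaker programme) the 4 largest called changes among genes averaging 0.5 FPKM or more whose groups did not overlap, a fixed set (such as Isl1, Tbx18 and Myl7) whatever their values, and the 3 genes most like Tbx20 and Gata6. Genes of the calcium-handling and contractile apparatus beside Tnni3 are named as members of their list. The 9 ratios, Tbx4, Myl3, Myh7, Mybphl, Gata2, Actn2, Mybpc3, Rsrc1 and Mef2a were chosen after values were seen. So were Cacna1g, Cacna1d, Lyz2, Mrc1, Cd68, Cd163, Mta1, Mta2 and Rere. Hand1, Irx4, Bmp10 and Marco were not analysed here, and some genes that the rule names are not reported here. Alternatives were 2 other pseudocounts, 2 other filters, 3 other scalings, a replicate block, robust eBayes, limma-voom, and leaving out each library.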

Additional observations from a re-analysis of the deposited data

How the results depend on the processing

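The log2 fold changes of the 9 factors were computed under 16 alternative settings, 144 values in all, and all 144 kept their direction. Of these, 134 kept their call. The calls that changed were those of Nkx2-5, Shox2, Hand2 and Tbx3, and those of Tbx20, Tbx5, Gata4, Mef2c and Gata6 did not change. Tbx3 passed with TPM (log2 fold change 0.30, adjusted p = 0.042), limma-voom (0.28, 0.024) and a filter of a mean FPKM of at least 1 (0.26, 0.050), and without BPVB replicate 2. With 1 library left out at a time, the median log2 fold change of the factors was between 0.19 and 0.32 and the number that fell between 1 and 2. The number called in all, 6, was then between 4 (without BPVB replicate 3) and 6, and the number that rose between 3 and 5. With TPM, limma-voom and a mean FPKM of at least 1, 7 factors were called. With an absolute log2 fold change above 1 asked as well, 1 factor was called. Relative to the sarcomere genes, the median log2 difference was 0.87 with Myl7 alone as the reference, 0.67 with the mean log2 level of the list, and between 0.67 and 0.82 with 1 library left out. With a mean FPKM of at least 1, 1 autonomic neuron marker was called lower in place of 6, since fewer of these low genes were tested. Same-numbered libraries of the 2 groups correlated at 0.031, 0.025 and 0.019 in their deviations from the group means, all under the 0.1 asked for to treat them as pairs. With the replicate number as a block, 6 of the 9 factors were called, as without it, and 4539 genes in place of 4775. Each of the 6 libraries correlated best with its own number, a hint from the data and not from the design. The deviations are centred within each group, so the 6 matches are not independent, and no pairing is concluded from them. Depth limits what can be said of genes with few fragments, such as Isl1, which was not tested.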
